A study of Mus musculus with 46 samples.

Results

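The genes described here encode the proteins of the cytosolic ribosome. They were chosen by symbol: a gene entered if it carried an Rpl or Rps number with at most a short suffix, or was Rplp0, Rplp1, Rplp2 or Rpsa, and names holding -ps and the Rps6k kinase genes were left out. The rule took 84 of the 22800 symbols in the count table (0.368%), 51 of the large subunit and 33 of the small subunit. In the GENCODE M21 annotation of the mouse genome build GRCm38, 83 of them are protein-coding, and Rps4l is a transcribed processed pseudogene.

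The study sequenced RNA from single oriens-lacunosum moleculare (OLM) interneurons, the dendrite-targeting inhibitory cells of the hippocampal stratum oriens, whose cytosol was drawn into a patch-clamp pipette. All 46 cells were labelled as OLM cells that had passed quality control, from mice aged postnatal day 21 to 30. They came from mice of the Htr3a Cre driver line (23 cells) or the Sst Cre driver line (23 cells), in which Cre is driven by the gene of a serotonin receptor subunit or of the peptide somatostatin. The labels name no animal, no treatment and no further allele, so each line counts as 1 sample and the lines are compared by description, with no test and no p-value. Sst and Gad1 reads, which mark these cells, were present in 23 of 23 cells of each line, but Htr3a line replicates 4 and 20 held Gad1 at only 0.446 and 7.08 CPM (counts per 1000000 assigned reads), against line medians of 1063 and 1069.

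A ribosome is built from a small subunit, which reads the messenger RNA, and a large subunit, which joins the amino acids. Most of the proteins are present as a single copy per particle, and the genes are commonly transcribed together and at high levels. In mammals the messengers of ribosomal proteins begin with a run of pyrimidines, the 5′ terminal oligopyrimidine (TOP) motif, through which the growth-related kinase mTOR regulates their translation. A few of the genes have paralogues whose products can take the place of the main protein, some of them in particular tissues.

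Windows around the start sites of RefSeq transcripts (GRCm38.p6) were searched for short strings, which played no part in the rule that chose the genes. Starts were given for 63 of the 84 genes, with 75 windows, and 32851 windows were given over all genes. In the 50 bases before to 50 bases after the start, CTTTCC or CTCTTT lay on the gene's own strand in 34 member windows (45.3%) and in 8.04% of all windows. CTTTCC alone was found in 29.3% of member windows and 4.69% of all, and CTCTTT alone in 29.3% and 3.99%; these strings overlap where both occur as CTCTTTCC. On either strand the shares for both strings together were 49.3% and 15.1%. Windows of the nuclear genes of mitochondrial ribosomal proteins held one of the strings on the gene's own strand in 8 of 71 cases (11.3%). TATAAA lay on the gene's own strand in 5 member windows (6.67%) and in 3.40% of all windows. A match is a match of letters and does not show that a motif is used.

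The windows below run from 40 bases before to 20 bases after the start, 5′ to 3′ on the gene's strand, with CTTTCC and CTCTTT in capitals. Rpl28, Rpl38, Rps6 and Rps27 are shown because the string lies at the start itself. Rpl31 and Rps23 are the pair of members whose levels were most correlated over the cells, and neither holds a string in the stretch shown, though both do further into the 50 bases after the start. Rps27 with Rps27l and Rpl22 with Rpl22l1 are paralogue pairs described further on.
Rpl28 (chr7:4792925-4792984, plus strand): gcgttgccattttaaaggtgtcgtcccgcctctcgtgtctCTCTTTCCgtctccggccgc
Rpl38 (chr11:114668540-114668599, plus strand): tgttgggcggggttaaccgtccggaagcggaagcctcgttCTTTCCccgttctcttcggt
Rps6 (chr4:86857348-86857407, minus strand): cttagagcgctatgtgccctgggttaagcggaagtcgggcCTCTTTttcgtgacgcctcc
Rps27 (chr3:90213629-90213688, minus strand): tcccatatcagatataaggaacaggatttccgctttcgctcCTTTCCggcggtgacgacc
Rps27l (chr9:66946046-66946105, plus strand): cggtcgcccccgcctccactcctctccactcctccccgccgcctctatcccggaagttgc
Rpl22 (chr4:152325686-152325745, plus strand): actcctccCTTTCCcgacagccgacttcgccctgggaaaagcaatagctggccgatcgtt
Rpl22l1 (chr3:28805468-28805527, plus strand): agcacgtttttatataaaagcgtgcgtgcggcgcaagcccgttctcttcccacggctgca
Rpl31 (chr1:39367811-39367870, plus strand): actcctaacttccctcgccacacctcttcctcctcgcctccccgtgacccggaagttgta
Rps23 (chr13:90923082-90923141, plus strand): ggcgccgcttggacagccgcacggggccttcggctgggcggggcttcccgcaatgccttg

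Ribosomal protein genes took a small and uneven share of each cell's reads. The share ranged from 0.480 to 8.59% of reads in the Htr3a line, with a median of 0.727%, while Sst-line cells ran from 0.437 to 3.01% around a median of 0.735%. The means over cells were 1.36% ± 1.76 (SD, n = 23 cells) and 1.0% ± 0.728 (SD, n = 23 cells), a difference smaller than either SD, and the ranges of the lines overlap. Each cell gave between 3391829 and 31386369 reads assigned to genes, so the counting error of a share is small beside the spread between cells.

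Most cells lay in a narrow band and a few stood far above it. The share was under 1% in 17 cells of each line and over 1.5% in 5 cells of the Htr3a line and 4 of the Sst line. Htr3a line replicate 10 had the highest share (8.59%), 19.7-fold that of the lowest cell, followed by Htr3a line replicates 11 (3.10%) and 12 (2.98%) and by Sst line replicates 23 (3.01%) and 8 (2.83%). Replicate 10 of the Htr3a line, the cell with the most genes read (12693) and with Gad1 at 121 CPM, held the highest CPM of all 46 cells for 62 of 81 members (76.5%) and for 2.73% of the 10004 genes read in at least 12 cells. Pooling the reads of a line gave 1.42% in the Htr3a line and 0.965% in the Sst line. Without replicate 10 the pooled share of the Htr3a line was 1.01%.

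**Figure D1:**
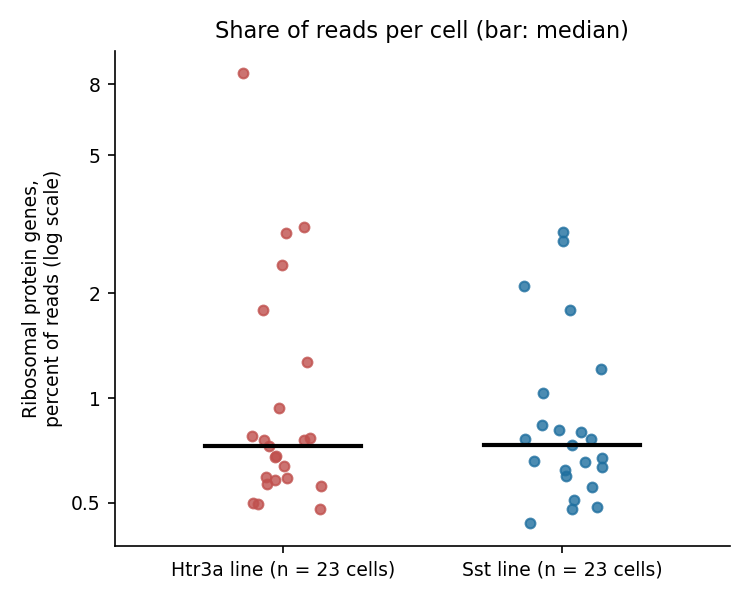
Share of reads assigned to the 84 ribosomal protein genes in each of 46 cells (points, log axis), by driver line, with the median of 23 cells as a bar. The medians are 0.727% and 0.735%, and Htr3a line replicate 10 lies alone at 8.59%.

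Nearly all of the genes were read in nearly all cells. Of the 84 members, 82 had reads in at least 1 cell and 72 (85.7%) had reads in at least 40 cells, where 9.7% of all symbols did. These 72 passed a filter on reads, so they describe the more abundant members; they comprise 44 of the large and 28 of the small subunit. Rpl19, Rpl38, Rpl41, Rplp1, Rps7, Rps19, Rps25 and Rps29 were read in all 46 cells. A cell had reads for a median of 79 members in the Htr3a line (42 to 81) and 77 in the Sst line (53 to 81). The 5 cells with under 60 members, Htr3a line replicates 20 (42), 4 (48) and 6 (54) and Sst line replicates 21 (53) and 17 (55), held 120 of the 175 zeros among the 72 genes, while 22 cells had no zero there.

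The other 12 members were read in fewer than 40 cells. Rpl36a (39 cells), Rpl7a (37), Rps4x (36), Rps12 (36), Rps4l (35), Rpl7l1 (35), Rpl22 (34), Rps15a (34) and Rps27l (27) were still read in most cells. Deep libraries were among those without reads. Rps4x, the X-linked gene of a small-subunit protein, had 0 reads in 10 cells and a median of 137 CPM in the cells that had any, and the deepest cell without it had 19291546 reads. Rpl7a had 0 reads in 9 cells, of which the deepest had 23266650 reads. Rpl3l was read in 2 cells, and Rpl10l and Rpl39l in none, which allows a share of up to 6.52% of cells with a read (3 of 46, for counting error only). The members also share sequence with other genes, and how reads matching several places were counted was not stated. Over all members a median of 45.4% of the 31-base words of the coding transcripts occurred in another annotated gene. Among the 12 members read in fewer than 40 cells this share was 87.1% for Rpl7a and 78.4% for Rps4x, but 9.78% for Rpl22 and 7.29% for Rps15a, and its part in the missing reads was not tested.

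Levels were compared between genes per kilobase of exon. Among the 72 genes, the median over cells of CPM per kilobase ranged from 9.45 (Rpl35a) to 222 (Rplp1), with a median of 47.7. Among the highest were Rplp1 (222), a stalk protein that helps recruit elongation factors, Rpl19 (178), Rps15 (149), Rpl4 (149) and Rps3a1 (138). The lowest were Rpl35a (9.45), Rps24 (10.2), Rpl30 (12.2), Rps20 (13.4), Rpl18 (14.4) and Rpl27a (14.9). With the exon length of coding transcripts alone the order correlated with this one across the 72 genes at a Spearman rho of 0.832. That measure kept 3 of the 6 highest and 4 of the 6 lowest, with Rpl19 at 226, Rplp1 at 222 and Rps24 at 32.8 CPM per kilobase, and it was added after the data had been seen. Neighbours in these orders differ by far less than the SD between cells. Over the 81 members read in at least 12 cells, that SD ran from 1.08 (Rpl19) to 3.30 (Rps4x) on the log2(CPM + 1) scale.

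Rplp1 (chromosome 9, 61913284 to 61914542) was read at 6.49 to 2254 CPM in the Htr3a line (median 107) and at 33.9 to 582 CPM in the Sst line (median 113). The other stalk genes had reads in at least 22 cells of each line. Rplp0, the base of the stalk, had medians of 182 CPM in the Htr3a line (0 to 927) and 114 CPM in the Sst line (0 to 519). Rplp2 had medians of 66.5 (29.6 to 1192) and 65.2 (0 to 867). Rpsa, the small-subunit protein also known as the laminin receptor, had medians of 115 (0 to 1372) and 144 (1.41 to 383). In each case the range of one line overlapped that of the other.

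The member with the most reads, which grow with transcript length, differed between cells. Rpl4, whose product lines the exit tunnel of the large subunit, had the most reads of the members in 14 cells and Rpl3 in 9, and 21 different genes led at least 1 cell. The 5 leading genes took a median of 20.6% of a cell's ribosomal protein reads in the Htr3a line (14.6 to 52.8) and 20.2% in the Sst line (17.2 to 35.4). Large-subunit genes took 1.81 times the reads of small-subunit genes in the median Htr3a-line cell (0.881 to 2.65) and 1.73 times in the median Sst-line cell (1.13 to 2.74), with 51 and 33 genes behind the sums.

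The comparison of driver lines asks whether OLM cells marked by either line carry these transcripts at the same level. The lines lay close together beside the spread between cells, for the members as for nearly all genes. The line difference, the mean log2(CPM + 1) of Sst-line cells minus that of Htr3a-line cells, was smaller than the SD over the 46 cells for 81 of the 81 members read in at least 12 cells, as it was for 99.9% of all genes with reads in as many. Its median was -0.16, beside -0.22 over all 10004 genes with reads in at least 12 cells. Leaving out Htr3a line replicates 4 and 20, the cells lowest in Gad1, gave a median of -0.42 for the members. The median over all genes without these cells is not given here. The value of -0.42 therefore does not separate a shift of the members from one common to all genes. Of the 81, 28 were higher in the Sst line (34.6%, where 37.5% of all genes were) and 53 lower. Rps20 was above 1, as were 4.59% of all genes, and Rpl7a, Rpl21 and Rps4l were below -1, as were 15.7% of all genes. Among the 72 genes read in at least 40 cells, 27 were higher (37.5%, with 52.4% of all 2212 such genes) and the median was -0.08, against 0.04 for all. In that set 1 member lay above 1 (5.2% of all) and 1 below -1 (5.97% of all).

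**Figure D2:**
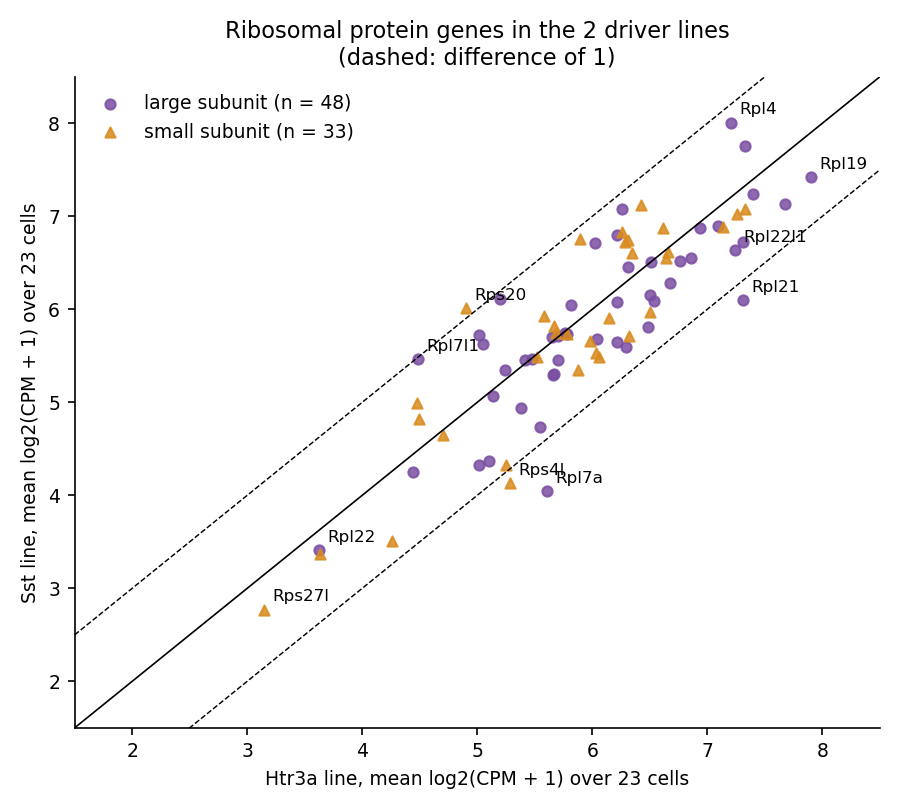
Mean log2(CPM + 1) over 23 Sst-line cells against that over 23 Htr3a-line cells for the 81 ribosomal protein genes read in at least 12 cells, by subunit. The solid line marks equal means and the dashed lines a difference of 1, which Rps20 passes on one side and Rpl7a, Rpl21 and Rps4l on the other.

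The subunits lay close together, and the order of their medians depended on the measure. The 48 large-subunit genes had a median line difference of -0.19, with 15 higher and 33 lower, and the 33 small-subunit genes -0.06, with 13 higher and 20 lower. Across the 81 genes, the means in the 2 lines correlated at Pearson r = 0.862 and Spearman rho = 0.845, which describes genes and not replicates.

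The lowest line differences were those of Rpl7a (-1.56), Rpl21 (-1.22), Rps4l (-1.16), Rps10 (-0.92), Rpl11 (-0.81) and Rps15a (-0.76). Rpl7a, a large-subunit gene on chromosome 2 (26910764 to 26913318), was read in 21 Htr3a-line cells (91.3%) and 16 Sst-line cells (69.6%). Its CPM ran from 0 to 460 (median 72.5) and from 0 to 292 (median 35.1). Rpl21 was read in 22 and 21 cells, with CPM from 0 to 1753 (median 128) and from 0 to 672 (median 101), and its difference was -0.34 by medians over cells. Rps10 had medians of 46.1 and 22.7 CPM. Rpl11, a large-subunit protein known for binding the p53 regulator MDM2 when free, had medians of 56.0 CPM (0 to 714) and 41.4 CPM (0 to 347).

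The highest line differences were those of Rps20 (1.11), Rpl7l1 (0.98), Rpl10a (0.91), Rps15 (0.85), Rpl9 (0.82) and Rpl4 (0.80). Rps20, a small-subunit gene on chromosome 4 (3831334 to 3835665), had reads in 19 cells of the Htr3a line (82.6%) and 22 of the Sst line (95.7%). Its CPM ran from 0 to 1101 (median 44.7) and from 0 to 239 (median 73.4), and by CPM summed over a line its difference was -0.25, so that the direction rests on the measure. Rpl4 (chromosome 9, 64173375 to 64178666) ran from 0 to 819 CPM (median 288) in the Htr3a line and from 0.217 to 779 CPM (median 348) in the Sst line. Its difference was 0.13 without Htr3a line replicates 4 and 20. Rps15 had medians of 81.2 and 104 CPM, and Rpl9 of 121 and 139. By CPM summed over a line, Rpl9 stood at -0.08, Rps15 at 0.06, Rpl10a at 0.31, Rpl4 at 0.36 and Rpl7l1 at 0.68.

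The direction by summed CPM depended on 1 cell. With all cells of a line summed, 68 of the 81 members (84.0%) were lower in the Sst line and 13 higher, with a median log2 ratio of -0.54, where 48.04% of all 10004 genes were lower. Without Htr3a line replicate 10, a setting added after the data had been seen, 38 were lower and 43 higher, with a median of 0.03, and 48.07% of all genes were lower. Among all genes the median log2 ratio was 0.03 with that cell and 0.03 without it.

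Ribosomal protein genes varied together from cell to cell. Over the 46 cells and the 72 genes, the 2556 pairs of members had a median Pearson r of 0.378 (quartiles 0.245 and 0.502), where the pairs of all 2212 genes read in at least 40 cells had 0.112 and members with other genes had 0.102. Of the member pairs, 96.9% were above 0 and 646 (25.3%) above 0.5, beside 4.01% of all pairs. The pairs share the same 46 libraries and their totals, so these values are descriptions. The median was 0.383 within the large subunit, 0.392 within the small subunit and 0.371 between them.

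The co-variation was present in each line. The median r of member pairs was 0.470 over 23 cells of the Htr3a line and 0.287 over 23 of the Sst line, beside 0.179 and 0.0257 for all genes. Leaving out Htr3a line replicate 10 gave 0.323, and leaving out replicates 4 and 20 of that line, the cells lowest in Gad1, gave 0.374. Over all genes the same settings gave 0.114 and 0.0487. Other sets of housekeeping genes had medians of 0.543 (11 mitochondrially encoded genes), 0.336 (68 nuclear genes of the respiratory chain), 0.219 (24 genes of mitochondrial ribosomal proteins), 0.213 (17 initiation factors), 0.196 (30 proteasome subunits) and 0.154 (6 elongation factors).

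**Figure D3:**
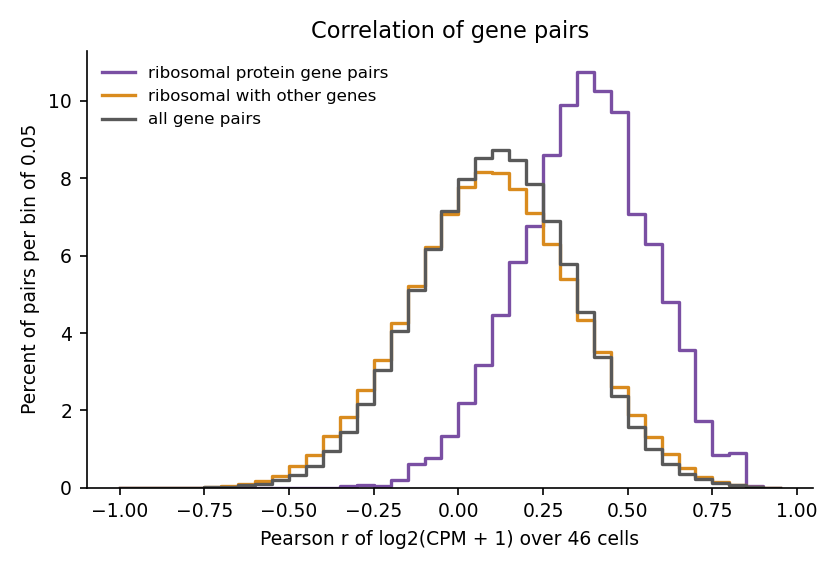
Distribution of Pearson r over 46 cells in bins of 0.05 for the 2556 pairs of ribosomal protein genes, for ribosomal protein genes with other genes, and for all pairs of the 2212 genes read in at least 40 cells. The medians are 0.378, 0.102 and 0.112.

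The highest pairs were Rpl31 with Rps23 (r = 0.857), Rpl9 with Rps15 (0.847) and, within the small subunit, Rps25 with Rps29 (0.845). Within lines, Rpl31 with Rps23 stood at 0.952 and 0.718, Rpl9 with Rps15 at 0.948 and 0.400, and Rps25 with Rps29 at 0.845 and 0.892, for the Htr3a and the Sst line. Averaged over its partners, r was highest for Rpl36 (0.551), Rpl41 (0.498), Rpl31 (0.496) and Rps15 (0.490). Low values were those of Rpl4 (0.165), Rpl22l1 (0.176), Rps2 (0.204) and Rpl3 (0.241). Rpl4 and Rpl3, the genes that led most cells, were thus among the least correlated members. Across the 72 genes this average had a Spearman rho of -0.124 with the mean level and 0.0324 with the share of words found elsewhere. Members with CTTTCC or CTCTTT near the start had a median average r of 0.377 (26 genes) and those with neither 0.379 (26 genes).

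Some genes outside the rule varied with the members. The correlation with the mean log2(CPM + 1) of the 72 members was highest for Fau (0.872), which encodes a fusion protein that yields a small-subunit protein, Ost4 (0.843), a subunit of the oligosaccharyltransferase, Uqcrh (0.842), of respiratory complex III, and Ndufs5 (0.836), of complex I. The next were 2010107E04Rik (0.827), Gm9803 (0.806), Lsm7 (0.803) and Agbl5 (0.793), and the exons of Agbl5 and Ost4 overlap over 53.2% of the exon bases of Ost4 and 9.60% of those of Agbl5. Of 2140 non-members, 11.9% had an r above 0.5. The most negative was Cyp46a1 (-0.688), the brain cholesterol hydroxylase. Across 2058 non-members with an annotated length, this r had a Spearman rho of -0.398 with exon length, and members were short, at a median of 1800 exon bases against 3923.

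At the level of the cell, the ribosomal share went with the shares of several other gene sets. Its log2 correlated over 46 cells with that of nuclear respiratory chain genes at r = 0.890 (rho 0.715; 0.879 without the 2 cells farthest from the median share, Htr3a line replicates 10 and 11; 0.912 and 0.850 within the Htr3a and the Sst line). With the share of mitochondrial ribosomal protein genes r was 0.859 (0.887 and 0.846 within lines), with proteasome subunits 0.617, with mitochondrially encoded genes 0.592 (0.363 without the 2 cells) and with elongation factors 0.157. The mean exon length of the gene behind a read, which counts the members' own reads, correlated at -0.810 (rho -0.610; -0.849 and -0.731 within lines). These shares come from the same reads and their totals, and the part of transcript length in the ribosomal share was not tested.

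**Figure D4:**
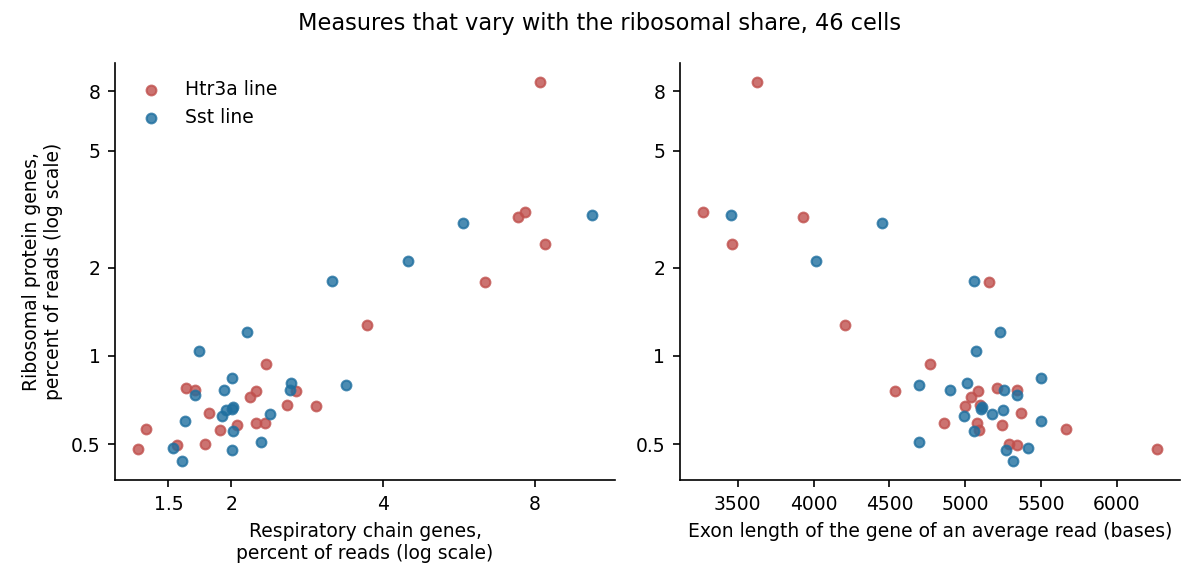
Ribosomal protein share of reads in each of 46 cells (log axis) against the share of nuclear respiratory chain genes (left, log axis) and the mean exon length of the gene behind a read in bases (right), coloured by driver line. Cells with over 1.5% ribosomal reads lie at high respiratory chain shares in both lines.

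Markers of the cells themselves and of other cell types varied beside the ribosomal share. The share correlated at r = 0.574 with Sst CPM (0.532 without the 2 cells), at -0.368 with Gad1 (-0.257), at -0.052 with total reads and at 0.234 with the number of genes read (-0.004 without the 2 cells). The 10 microglial genes, which summed to 0 to 9430 CPM in the Htr3a line and 0.0536 to 11192 CPM in the Sst line, had r = 0.108 (rho 0.351). The oligodendrocyte list summed to 0.144 to 13314 CPM and 0.473 to 5321 CPM, with Cldn11 at 0 in every cell, and had r = -0.028, and the astrocyte list summed to 0.360 to 1495 CPM and 0.204 to 1049 CPM and had r = 0.167. The highest oligodendrocyte sum (13314 CPM) and the highest astrocyte sum (1495 CPM) were both those of Htr3a line replicate 4. That cell was also the lowest in Gad1 (0.446 CPM) and is kept in the line values unless its removal is stated. Htr3a line replicate 10 held 79.8 CPM of microglial genes and Htr3a line replicate 11 held 9430 CPM. The part of these markers in the ribosomal share was not tested.

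Paralogues showed patterns of their own. In most cells Rpl22l1 was read above Rpl22. Rpl22 (chromosome 4, 152325742 to 152334071) was read in 17 cells of each line, with medians of 13.3 CPM (0 to 427) and 21.7 CPM (0 to 84.8), and Rpl22l1 (chromosome 3, 28805436 to 28807424) in 23 and 22 cells, with medians of 135 CPM (12.3 to 916) and 111 CPM (0 to 1171). Per kilobase, Rpl22l1 was higher in 41 of 46 cells and made up 84.8% of the pair in the Htr3a line and 92.7% in the Sst line. Over the 46 cells their correlation was -0.046. Of the 31-base words of Rpl22l1, 67.5% occur in another gene, against 9.78% for Rpl22.

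Rps4l, the pseudogene on chromosome 6 (148354656 to 148355598), made up 48.1% of its pair with Rps4x per kilobase in the Htr3a line and 36.3% in the Sst line. It was read in 19 and 16 cells, with medians of 92.2 CPM (0 to 290) and 57.7 CPM (0 to 192), while Rps4x was read in 18 cells of each line with medians of 81.7 CPM (0 to 1251) and 118 CPM (0 to 841). Rps4l was read without Rps4x in 6 cells, Rps4x without Rps4l in 7, and neither in 4. Of its words, 25.96% occur elsewhere.

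Rpl7l1, a paralogue of Rpl7 (chromosome 17, 46773907 to 46782672), was read in 16 cells of the Htr3a line and 19 of the Sst line, with medians of 48.1 CPM (0 to 496) and 103 CPM (0 to 464). Its share of the pair was 28.7% and 46.0%, or 18.4% in the median Htr3a-line cell, and its r with Rpl7 was -0.137. These shares use the length of all exons, by which the medians over cells were 47.5 (Rpl7) and 20.8 (Rpl7l1) CPM per kilobase. With the exon length of coding transcripts alone the medians were 110 and 23.1, so the share rests on the length used. Rps27l was read in 14 and 13 cells, with medians of 12.9 CPM (0 to 607) and 11.3 CPM (0 to 145) and 30.8% and 22.4% of its pair with Rps27, or 10.8% in the median Sst-line cell. Rpl36al, which the rule leaves out, was read in 21 and 23 cells, with r = 0.593 to Rpl36a. By the length of all exons it was higher per kilobase than Rpl36a in 38 cells, at 67.6% and 70.7% of the pair. With the exon length of coding transcripts alone, the median of Rpl36a was 47.9 instead of 13.99 CPM per kilobase. The length of Rpl36al is 1353 bases by either measure, and the shares by coding length are not given here. Of the 31-base words of Rpl36a, 88.3% occur in another gene, against 23.4% for Rpl36al. The part of these words in the shares was not tested.

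Rpl3l, known as the muscle form of Rpl3, was a case of 1 cell. Sst line replicate 16 held 1506 of its 1507 reads (76.0 CPM) and had 0 reads of Rpl3, which was read in 22 cells of each line at medians of 297 and 275 CPM. The other read lay in Sst line replicate 2, where Rpl3 stood at 201 CPM. No 31-base word of Rpl3l (chromosome 17, 24727820 to 24736143) occurs in another gene, and how the reads of that cell were placed was not checked here. Rpl10l and Rpl39l, both known from the testis, had 0 reads in 23 of 23 cells of each line, which allows up to 13.04% of cells of a line with a read (3 of 23), and their parents Rpl10 and Rpl39 were read in 44 and 42 cells. The symbols holding -ps, 18 in the table, of which the annotation types 5 as protein-coding, together held a median of 0.0904% as many reads as the members (at most 0.206%).

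**Figure D5:**
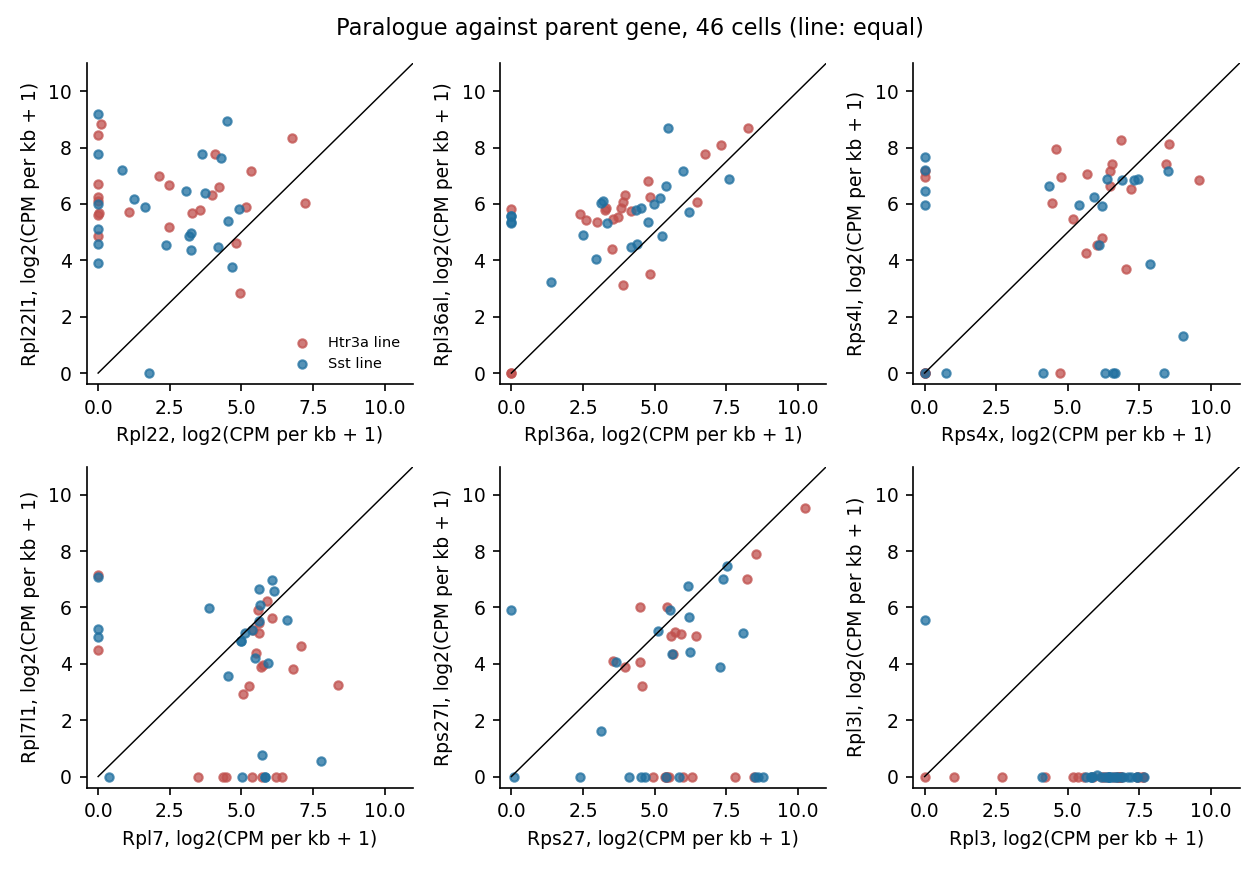
Level of 6 paralogues against the parent gene in each of 46 cells, as log2 of CPM per kilobase of exon plus 1, coloured by driver line, with the line of equality. Rpl22l1 and Rpl36al lie above the line in 41 and 38 cells, and Rpl3l is off 0 in 1 cell, which has no Rpl3 reads, and at 1 read in another.

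Other genes of the translation machinery were taken from lists chosen beside the members, and their counts stand beside the 37.5% of all genes that were higher and the 15.7% that were below -1. Of 4 ribosomal protein genes outside the rule, 2 had a higher mean in the Sst line and 2 a lower one, among them Gnb2l1 (-0.48, the older name of Rack1), Fau (0.38) and Rpl36al (0.30). Of 9 elongation factors, 4 were higher and 5 lower (median -0.19), with Eif5a2 at -1.47, Eef1d at -0.86 and Eef2, which moves the ribosome along the messenger, at 0.85. Of 30 initiation factors, 15 were higher and 15 lower (median -0.002), with Eif3f (-1.68), Eif3h (-1.62) and Eif2s1 (-1.33) the largest. The 18 non-ribosomal TOP messengers, some of them in these lists as well, had 7 higher and 11 lower (median -0.24), with Pabpc1, the poly(A)-binding protein, at -1.55. By CPM summed over a line, Eef1d stood at 0.13, Fau at -0.54 and Rpl36al at -0.21, each with the other sign. The other genes named in this paragraph kept their sign, with Eif2s1 at -0.29.

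Of 39 ribosome biogenesis genes read in at least 12 cells, 19 were higher (37.5% of all genes were) and 20 lower (median -0.07). Nhp2, a protein of the complexes that modify ribosomal RNA, had reads in 19 cells of the Htr3a line and 12 of the Sst line (-2.53), and Fbl, the fibrillarin methyltransferase, in 13 and 19 (1.68). Lsg1, a GTPase of late large-subunit assembly, stood at -1.51. Of 15 genes of translation control, 4 were higher and 11 lower (median -0.25), with Mycn at -1.67, Mycl at -1.37 and Maf1, a repressor of RNA polymerase III, at -1.30. Of 74 mitochondrial ribosomal protein genes, 32 were higher and 42 lower (median -0.09), with Mrps22 (-2.04), Mrps23 (-1.75) and Mrpl17 (-1.67) the largest. By CPM summed over a line, the genes named in this paragraph kept their sign at smaller sizes. Lsg1 then stood at -0.36, Maf1 at -0.30 and Mrps22 at -0.55. Within the lists of biogenesis and translation control genes the median pairwise r over the cells was 0.0005 (7 genes) and -0.049 (3 genes).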

How the data were processed

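The deposited tables hold raw read counts per gene for 46 cells, by symbol (22800) and by Ensembl identifier (22880). The authors' normalized table is a signal in which each value is the count over 1 factor per cell. Per the submitters' processing notes, the tools were Trimmomatic, STAR and featureCounts and the build GRCm38. How strand and reads with several matches were handled was not given in the sources used here, and no molecular identifiers are named, so limits on cells without reads cover counting error only. Total reads per cell ran from 3391829 to 31386369. The 84 members had identical counts in both tables.

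Counts were scaled to CPM and taken as log2(CPM + 1) (Python 3.11.15, pandas 2.3.3, numpy 2.4.6). Line differences used genes with reads in at least 12 cells and correlations genes with reads in at least 40. CPM summed over a line was divided by its cells and had 1 added. A paralogue's share is its mean CPM per kilobase over that of the pair. Lengths, overlaps and 31-base words came from GENCODE M21, and start windows from RefSeq. The calculations were tested on simulated data. Each line is 1 sample, so no test was made and the cells of a line may share an animal.

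The members and lists were chosen with earlier results of these data known. Genes named are the 6 highest and lowest levels and line differences, the 5 highest and lowest average correlations, members read in fewer than 40 cells, the paralogue pairs, the stalk genes and Rpsa, the 8 non-members most like the members, and up to 3 genes per translation list. Genes outside this rule, such as Rps23, Rps25, Rps29, Rpl28, Rpl38, Rps6 and Cyp46a1, were chosen after their values were seen. A few genes named by this rule are left out of the text. Alternatives included edgeR 4.0.16 (TMMwsp) and DESeq2 1.42.0 (poscounts) factors, a pseudocount of 10 and thinning to 3000000 reads.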

Additional observations from a re-analysis of the deposited data

How the results depend on the processing

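The median line difference of the members, -0.16, lay between -0.30 with Htr3a line replicate 4 left out and 0.02 with replicate 10 of that line left out, and between -0.54 (CPM summed over a line) and 0.03 (the same without Htr3a line cell 10) under the other settings. The count of members higher in the Sst line, 28, was 24 with TMMwsp factors and 36 with poscounts factors and with the deposited normalized table. Of all 10004 genes, 35.3%, 39.6% and 39.1% were higher in these settings in turn, beside 37.5% with CPM. The count of members was 18 of the 46 with under 50% of their words elsewhere and 16 without Htr3a line cells 4 and 20. By summed CPM it was 13, and 43 without Htr3a line cell 10. With single cells left out it ran from 23 (without Sst line replicate 8) to 41 (without Htr3a line replicate 10). Where no value over all genes is given, a count or a median does not separate a shift of the members from one common to all genes. The count past a 2-fold difference, 4, was 0 with a pseudocount of 10, 7 without Htr3a line cells 4 and 20, 2 among members read in at least 40 cells, 11 by summed CPM, 2 by medians over cells, 2 by summed CPM without Htr3a line cell 10, and 2 (without Sst line replicate 3) to 6 (without Htr3a line replicate 2) with single cells left out. Rps20 turned from 1.11 to -0.25 by summed CPM. The cause was not tested. Of 40 named members, 21 had the other sign under at least 1 setting. The difference between the subunits' medians, -0.14, ran from -0.25 to 0.04. The median pairwise r of 0.378 ran from 0.287 to 0.470 under the settings run, which include ranks and thinning. Over all genes it was 0.112 with all cells, 0.179 in the Htr3a line and 0.0257 in the Sst line. It was 0.114 over all genes without Htr3a line cell 10 and 0.0487 without cells 4 and 20 of that line. For the other settings the median over all genes is not given. The median shares of 0.727% and 0.735% became 0.368% and 0.358% over members with under 50% of their words elsewhere. No paired analysis was possible because the replicate numbers were given in accession order and the labels pair no cells. Between lines, precision is limited by 23 cells of unknown animals, and for single genes by reads missing from some cells.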
